A study of Mus musculus with 6 samples.

Results

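The zinc finger genes described here are the genes of the deposited table whose symbol is Zfp followed by a number, Zfp36 left out, with a mean of at least 1 RPKM (a read count scaled to gene length and library size) over the 3 wild-type libraries. The rule found 227 of the 23358 genes in the table, out of 339 such symbols at any level. The members were thus chosen by their measured wild-type level, which is given as a description, and the same libraries also enter every difference below. Across members the mean wild-type level had a median of 3.22 RPKM and ran from 1.005 to 20.0 RPKM. Just inside the limit were Zfp748, Zfp167, Zfp286 and Zfp438 with mean wild-type levels of 1.005, 1.02, 1.03 and 1.03 RPKM, and just outside were Zfp775, Zfp189, Zfp760 and Zfp691 with 0.985, 0.977, 0.974 and 0.971 RPKM.

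C2H2 zinc fingers are small zinc-bound folds, each of which reads a few bases of DNA, and a row of them lets a protein pick out a long site. The largest class in mammals carries a KRAB box ahead of the fingers, which recruits the corepressor Trim28 and through it the histone methyltransferase Setdb1. KRAB zinc finger proteins are known for silencing retroelements and for protecting imprinted genes, and their genes lie in clusters that arose by duplication. Zfp proteins without a KRAB box are a mixed company of transcription factors, chromatin regulators and RNA-binding proteins, some of them with known parts in bone and other mesenchyme.

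RNA-seq of total RNA from calvaria, the bony roof of the skull, compared 3 libraries of Ezh2 conditional knockout mice (cKO 8, cKO 10 and cKO 37) with 3 wild-type libraries (WT 14, WT 27 and WT 29), all from mice of 2 to 3 days. Ezh2 is the catalytic subunit of the complex that methylates histone H3 at lysine 27. The labels of both genotypes carry the name Osx (Sp7, a transcription factor of osteoblast precursors), but the Ezh2 alleles, the Cre line and whether the wild-type mice carry Cre are not given in the labels. The bones were treated with collagenase type II and trypsin before freezing, and nothing in the labels ties each library to its own animal. A p-value here weighs a difference against the scatter among libraries, which may be technical. Values by library are listed below with WT 14, WT 27 and WT 29 first and then cKO 8, cKO 10 and cKO 37.

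Gene counts per library ran from 60449016 to 95439578. The targeted gene, Ezh2, had 20.9 ± 0.68 CPM (counts scaled to a common library size) in WT and 19.9 ± 0.69 CPM in cKO (SD, n = 3 each), a log2 fold change of -0.07 ± 0.07 (SE) that did not pass the test (adjusted p = 0.507); reads over the whole gene do not check a deletion of some exons. Of 7 osteoblast markers all were detected, and 1 passed the test as lower and none as higher. Over all genes tested 6.45% were lower and 5.96% higher. The summed level of the 7, in which the most abundant genes weigh most, was 74570 to 103417 CPM in WT and 47610 to 71170 CPM in cKO. Those ranges did not overlap, nor did those of 2 other lists. Macrophage and neutrophil markers (6 of 7 tested, 1 lower) had 296 to 377 CPM in WT and 227 to 251 CPM in cKO. Neural and meningeal markers (3 of 4 tested, 1 lower) had 11.6 to 12.9 CPM in WT and 6.45 to 8.48 CPM in cKO. Osteoclast (1 of 5 lower), chondrocyte, endothelial, erythroid, skeletal muscle and skin markers overlapped between the groups. Chondrocyte markers spread from 538 to 6846 CPM over the libraries. Hba-a1, Myh3, Myh8, Krt5 and Krt14, defining markers of red cells, developing muscle and skin, were under 0.1 RPKM in every library. The part of these cell types in the results below was not tested. In bulk RNA, fewer cells of a type and less RNA per cell cannot be told apart.

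More Zfp genes rose than fell in the knockout. All 227 passed the low-count filter, and 39 were higher in cKO (17.2%, beside 5.96% of the 16089 genes tested), 9 were lower (3.96%, beside 6.45%) and 179 did not pass edgeR's quasi-likelihood test at a Benjamini-Hochberg adjusted p of 0.05. Among tested genes that met the same RPKM limit, 6.47% were higher and 8.61% lower. The changes were small: the 39 members that rose did so by 1.18-fold to 1.65-fold with a median of 1.31-fold, and the 9 that fell had cKO to WT ratios of 0.75 to 0.86. The median log2 fold change over members was 0.13, beside 0.01 over all genes tested, and 170 of 227 lay above 0. All 3 cKO libraries were above all 3 WT libraries for 89 members and below them for 22, and the background shares of such genes were 17.2% and 17.4%. The median deviation of members from their mean over the 6 libraries was -0.08, -0.08 and -0.03 (log2) in WT and 0.11, 0.05 and 0.03 in cKO, so cKO 8 stood farthest from the wild types and cKO 37 nearest.

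The counts depended on single libraries. Without cKO 8 it fell to 12 higher and 1 lower (1.78% and 1.81% over all genes), and without WT 14, WT 27 or WT 29 it was 25, 22 or 20 higher, beside 3.48%, 3.42% or 2.44% of all genes, and 3, 3 or 1 lower, beside 3.43%, 3.74% or 2.36%. Tested against a change of at least 1.2-fold (glmTreat), no member passed, beside 0.385% and 0.311% of all genes. In the main edgeR test 98 members and 4675 of all 16089 genes had an unadjusted p under 0.05. DESeq2 called 49 members higher and 10 lower, beside 7.51% and 8.5% of all genes.

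Members with a KRAB box held most of the rises. A KRAB box was found in the translated proteins of 103 members, and 28 of these rose (27.2%) while 1 fell, with a median log2 fold change of 0.22 and 89 above 0. In another 114 members fingers but no KRAB box were found, and 11 of these rose (9.65%) and 6 fell, with a median of 0.05. The search may miss a diverged box, so some of the 114, called members with fingers alone below, may carry one. In 7 members neither was found and 2 of these fell, and 3 matched no protein. Per library, the median deviation of the KRAB members was -0.12, -0.13 and -0.06 in WT and 0.18, 0.08 and 0.07 in cKO. For members with fingers alone they were -0.040, -0.004 and -0.020 in WT and 0.058, 0.017 and -0.003 in cKO. In both classes all 3 knockout medians were above all 3 wild-type medians. Among members with fingers alone the groups all but touched, with cKO 37 at -0.003 and WT 27 at -0.004. Without cKO 8, 9 of the 103 KRAB members rose and their median was 0.18. The KRAB members were also scarcer, with a median wild-type level of 2.09 RPKM against 5.01 RPKM for members with fingers alone. The difference between the classes is a description and was given no test.

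**Figure D1:**
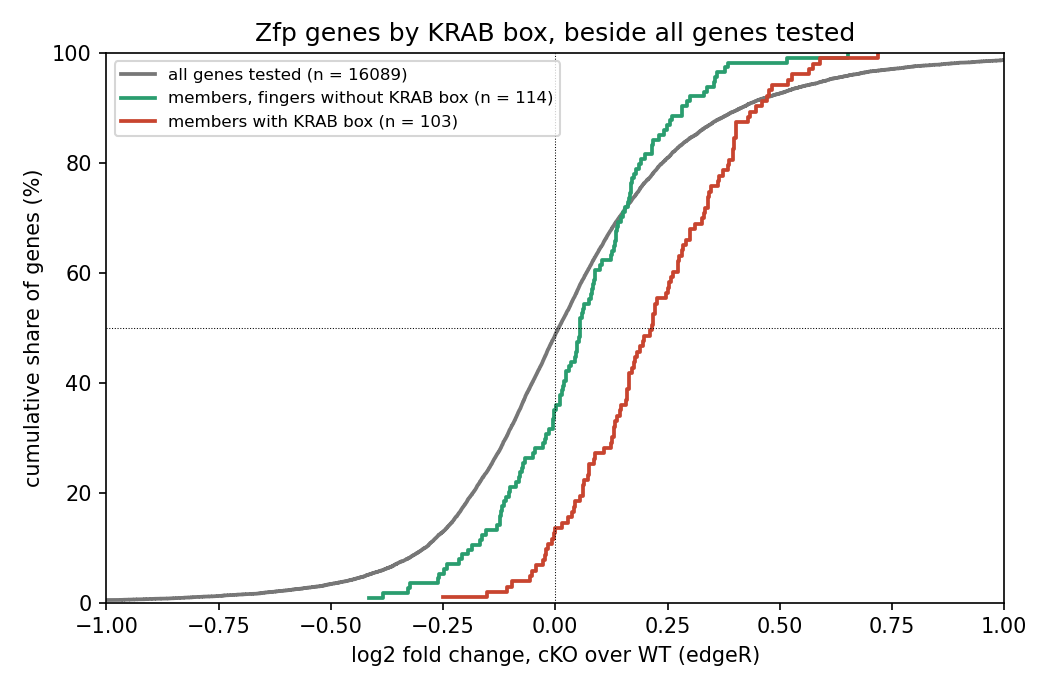
Cumulative share of genes (vertical axis, %) by log2 fold change of cKO over WT (horizontal axis). The curves are the 103 members with a KRAB box, the 114 members with fingers and no KRAB box found, and all 16089 genes tested. The KRAB curve lies to the right and crosses 50% at 0.22, against 0.05 for members with fingers alone and 0.01 for all genes.

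KRAB genes that carry other kinds of symbol also rose more often than they fell. Of 27 with a mean wild-type level of at least 1 RPKM, 8 rose (29.6%) and none fell, with a median of 0.13. One of them is Rbak, whose protein binds the retinoblastoma protein: it had 23.9, 26.7 and 26.99 CPM in WT and 39.7, 36.7 and 33.6 CPM in cKO. Other zinc finger families with at least 1 RPKM in WT were counted in the same way. Of 11 Zkscan and Zscan genes, among them Zkscan5, Zkscan6 and Zkscan14 of the KRAB genes just counted, 4 rose (36.4%) and none fell. Of 30 Zbtb genes 2 rose (6.67%) and 3 fell (10%), and of 17 Zc3h genes 3 rose (17.6%) and 2 fell (11.8%). Of 12 Klf genes none rose and 4 fell (33.3%), with a median of -0.21. Among all tested genes at this level 6.47% rose and 8.61% fell, so the Zbtb shares were near those of all genes. The Zbtb median was nonetheless 0.11, with 22 of 30 above 0, beside -0.02 over all genes at this level. Medians of the Zkscan and Zscan genes and of the Zc3h genes were 0.15 and -0.01.

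The largest rise was that of Zfp811, a KRAB protein with 13 fingers. It had 3.17, 3.21 and 2.83 CPM in WT and 4.87, 5.19 and 5.07 CPM in cKO. The groups were far apart and each was tight, at a log2 fold change of 0.72 ± 0.13 (SE, adjusted p = 0.00713). Zfp52, a KRAB protein with 14 fingers, had 6.75, 5.50 and 6.70 CPM in WT and 10.01, 9.77 and 8.76 CPM in cKO. Its log2 fold change was 0.59 ± 0.115 (adjusted p = 0.00995), and every knockout library was above every wild-type one, but the call was lost without cKO 8 (adjusted p = 0.0538). Zfp867, with 10 fingers, rose from 8.42, 8.33 and 8.31 CPM to 12.6, 10.7 and 13.7 CPM (0.56 ± 0.105, adjusted p = 0.00832). Its 3 wild-type values were almost equal, while the knockout values spread.

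Zfp160, which has 18 fingers, had 12.7, 11.6 and 13.7 CPM in WT and 18.0, 18.7 and 17.6 CPM in cKO (0.52 ± 0.08, adjusted p = 0.00487). Zfp46, with 12 fingers, had 30.2, 28.5 and 32.3 CPM in WT and 41.6, 46.1 and 39.1 CPM in cKO (0.48 ± 0.08, adjusted p = 0.00472). In both the lowest knockout library was well above the highest wild-type one. Zfp945, also with 18 fingers, rose by 0.47 ± 0.09 (adjusted p = 0.0107; 0.0572 without cKO 8). Among the 12 largest rises were 2 members in which fingers but no KRAB box were found. Of these, Zfp329 went from 13.3, 12.4 and 12.7 CPM to 21.1, 17.7 and 16.3 CPM (0.52 ± 0.10, adjusted p = 0.00888). Zfp167, now called Zkscan7, went from 3.42, 2.89 and 2.89 CPM to 5.41, 5.13 and 3.95 CPM (0.65 ± 0.16, adjusted p = 0.0225), with cKO 37 nearest the wild types. Leaving out WT 27, WT 29, cKO 8 or cKO 10 ended its call, at adjusted p-values of 0.0678 to 0.0993.

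Sequence shared with other genes, be they paralogs or overlapping neighbours, limits what some of these counts can tell. In Zfp935 100% of the 50-base windows of the transcript used recur in transcripts of other genes. In Zfp825 the share is 27.6% and in Zfp187 (now Zscan26) 25.8%, so the rises of these genes, 0.53, 0.48 and 0.38, are uncertain. So are the values of Zfp593, Zfp932, Zfp532, Zfp106 and Zfp335, which did not pass, at 64.5%, 55.5%, 39.0%, 25.2% and 20.25%. The call of Zfp935 was also lost without WT 29 or cKO 8 (adjusted p-values of 0.0639 and 0.071) and that of Zfp825 without cKO 8 (0.0666). Among the 204 members with under 20% of windows shared, 36 rose and 9 fell. Zfp811, Zfp30, Zfp867, Zfp160, Zfp329, Zfp46, Zfp62, Zfp187, Zfp192 (now Zkscan8), Zfp866 and Zfp182 were the 11 members called higher under every one of 15 other settings, glmTreat left aside. No member was called lower under all of them.

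**Figure D2:**
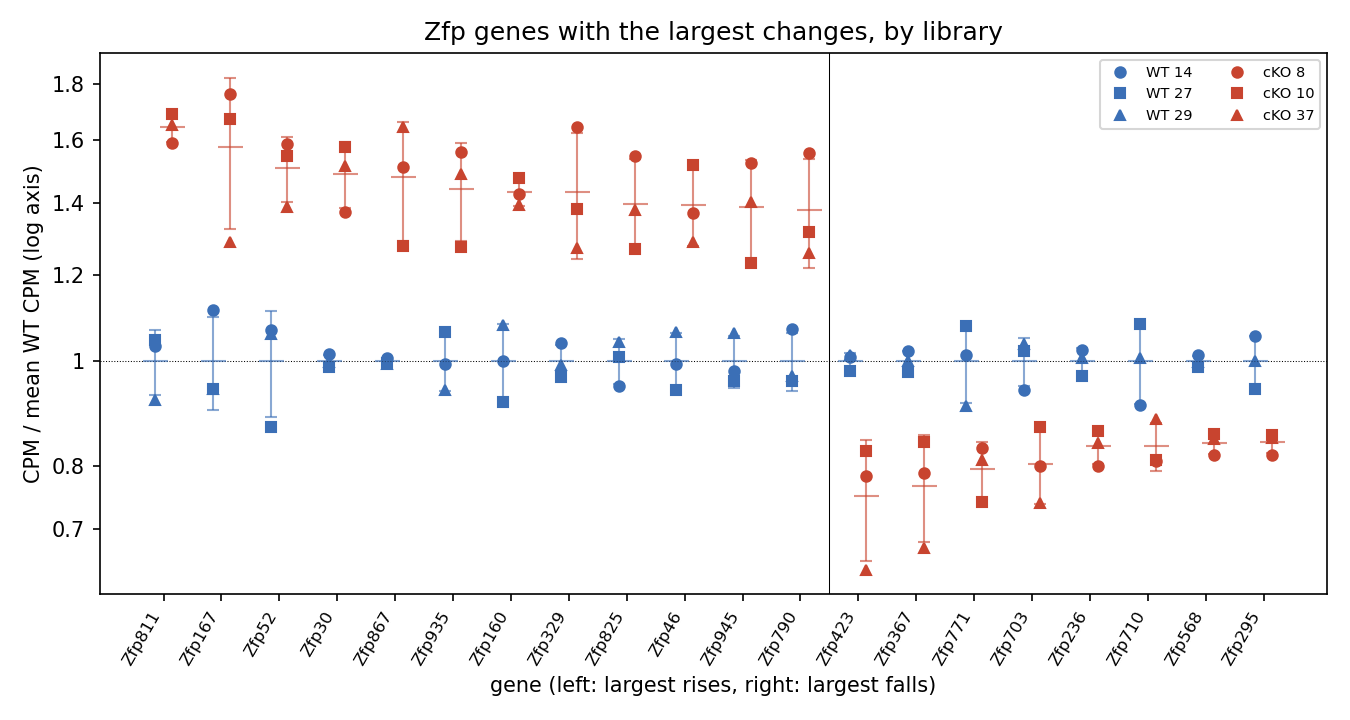
CPM of each library divided by the mean WT CPM of that gene (vertical log axis) for the 12 largest rises and the 8 largest falls among Zfp genes, with a short line at the mean and bars of 1 SD over the 3 libraries of a group. Knockout values lie above all wild-type values for the rises, Zfp811 highest at a mean of 1.65, and below them for the falls, Zfp423 lowest at 0.75.

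The members that fell were of another make. Of the 9, 6 had fingers and no KRAB box found, 1, Zfp568, had a KRAB box, and in 2 neither was found. These 2 were Zfp703 and Zfp259, now Zpr1, a protein that binds the translation factor eEF1A. Zfp423, a 27-finger regulator of preadipocyte commitment and partner of Ebf factors, fell the most: it had 34.1, 33.0 and 34.2 CPM in WT and 26.4, 27.9 and 21.7 CPM in cKO. The wild-type values were close together and all above the knockout ones, with cKO 37 lowest (log2 fold change -0.42 ± 0.09, adjusted p = 0.0135). Without WT 29 the call was lost at adjusted p = 0.055. Zfp367 fell by 0.38 ± 0.09 on the log2 scale, Zfp771 by 0.33 ± 0.09, Zfp236 by 0.26 ± 0.06, Zfp710 by 0.26 ± 0.075 and Zfp295 (now Zbtb21) by 0.25 ± 0.07. Adjusted p-values of these 5 were 0.0226, 0.0309, 0.0181, 0.0438 and 0.0454. Their calls were not stable: those of Zfp367 and Zfp236 were lost when WT 14, WT 29 or cKO 8 was left out (adjusted p-values of 0.0648 to 0.0758 and 0.0592 to 0.0847), and that of Zfp771 without WT 14, WT 27, cKO 8 or cKO 10 or with GC offsets (0.0735 to 0.136). Zfp710 lost its call under 8 of 15 settings, among them the absence of WT 27, WT 29, cKO 8 or cKO 10 (0.0543 to 0.238), and Zfp295 under 8, among them the absence of each library in turn (0.0511 to 0.152).

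Members with known parts in mesenchyme and skeleton did not move as 1 group: of 6, 2 fell and none rose. Over all genes tested 6.45% fell and 5.96% rose. Zfp703, a corepressor of the NET family, had 40.8, 44.2 and 44.9 CPM in WT and 34.6, 37.6 and 32.1 CPM in cKO, with no overlap (-0.32 ± 0.07, adjusted p = 0.0191). That call was lost without WT 27, WT 29 or cKO 8 or with GC offsets, at adjusted p-values of 0.0523 to 0.0737. Its relative Zfp503 gave a log2 fold change of 0.00 ± 0.09. Zfp521, the close paralog of Zfp423 and a partner of Runx2 in osteoblasts, was among the more abundant members at a mean of 16.2 RPKM in WT and 14.5 RPKM in cKO. Its levels were 141.5, 130.4 and 129.6 CPM in WT and 127.5, 119.5 and 111.5 CPM in cKO, lower in each knockout library than in any wild-type one, yet the difference of -0.16 ± 0.07 did not pass (adjusted p = 0.134). Zfp467, which favours fat over bone in marrow stromal cells, and Zfp219, a cofactor of Sox9 in cartilage, gave 0.10 ± 0.09 and 0.06 ± 0.08 with overlapping groups. The summed osteoblast markers above also differed between the groups, though only 1 of the 7 was called lower, and their part in these falls was not tested.

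Among the guardians of imprints and silencers of retroelements, 1 of 5 members rose and 1 fell, beside 5.96% and 6.45% of all genes tested. Zfp445, which works with Zfp57 to keep methylation at imprinting control regions, had 101.1, 102.6 and 110.2 CPM in WT and 143.5, 132.4 and 123.4 CPM in cKO. The lowest knockout library was above the highest wild-type one, at a log2 fold change of 0.35 ± 0.07 (adjusted p = 0.011; 0.0594 without cKO 8). Zfp568, the repressor of a placental promoter of Igf2, had 26.08, 25.45 and 25.73 CPM in WT and 21.10, 22.05 and 21.82 CPM in cKO. Both groups were tight (-0.25 ± 0.06, adjusted p = 0.0251), but the call was lost when cKO 8 or any 1 of the WT libraries was left out, at adjusted p-values of 0.055 to 0.101. Zfp57 itself gave 0.03 ± 0.095, Zfp809, a silencer of murine leukaemia virus, 0.16 ± 0.10, and Zfp932, a silencer of endogenous retroviruses, 0.04 ± 0.09; none passed. Zfp708, of the same list, was below the level rule at 0.241 RPKM in WT.

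Of 7 members that act on RNA or on ribosomes, none passed, beside 5.96% higher and 6.45% lower over all genes tested. Zfp207, a spindle and RNA-processing protein, had the highest wild-type level of all members, 20.0 RPKM in WT and 20.3 RPKM in cKO, with a 95% confidence interval of the log2 fold change from -0.15 to 0.18. Zfp106 had 16.9 and 16.1 RPKM, and Zfp598, the ubiquitin ligase of collided ribosomes, 15.8 and 15.1 RPKM. Zfp622 and Zfp593, both factors of large ribosomal subunit assembly, the double-stranded RNA binder Zfp346 and the splicing-linked Zfp326 had log2 fold changes between -0.12 and 0.15. Zfp638, of the same list, was not analysed here.

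Of 15 general regulators of chromatin and transcription, 1 rose (6.67%, near the 5.96% of all genes tested) and none fell. The 1 that rose was Zfp644, a partner of the G9a and GLP methyltransferases. It had 27.6, 25.3 and 28.2 CPM in WT and 32.1, 32.4 and 34.1 CPM in cKO (0.28 ± 0.065, adjusted p = 0.0193), a call lost without WT 27 or cKO 8 or with GC offsets (0.0528 to 0.07). Zfp143, an activator bound at many promoters, gave 0.28 ± 0.085 with no overlap and missed the threshold at adjusted p = 0.0512, as did the SUMO ligase Zfp451 at 0.0546 and the Chd4 regulator Zfp410 at 0.071. The other regulators of this list, among them the bone matrix gene regulator Zfp384 (Nmp4) at 0.00 ± 0.06, had log2 fold changes between -0.12 and 0.17. The most abundant member over all 6 libraries was Zfp740, with 19.0 RPKM in WT and 24.1 RPKM in cKO. Its counts were 90.1, 96.4 and 99.2 CPM in WT and 128.7, 118.3 and 114.5 CPM in cKO, a rise without overlap (0.34 ± 0.065, adjusted p = 0.00951; 0.0565 without cKO 8). Zfp146 and Zfp362, the remaining members of the 6 most abundant, gave 0.19 ± 0.06 and a value near 0 and did not pass.

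**Figure D3:**
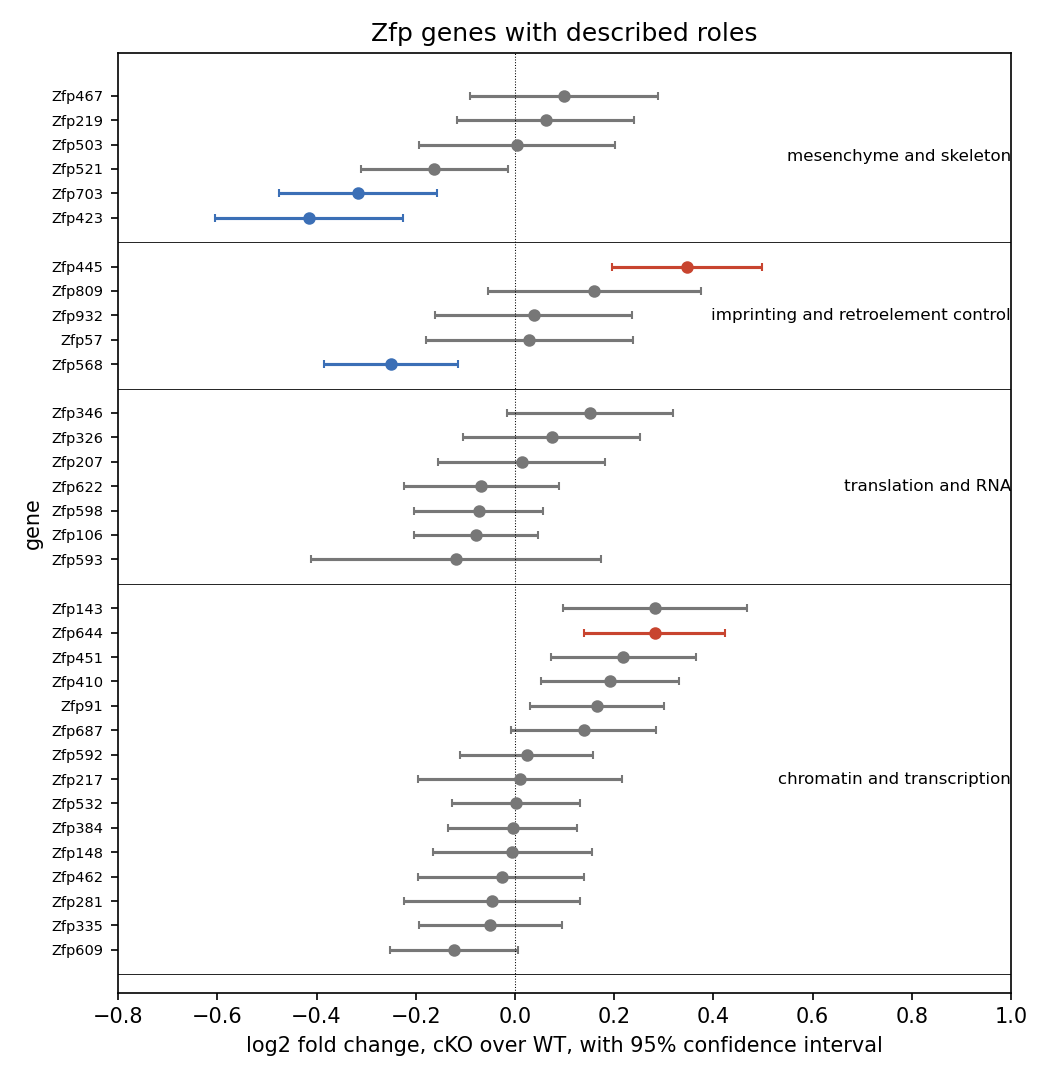
Log2 fold change of cKO over WT with its 95% confidence interval (horizontal axis) for Zfp genes with described roles, in 4 lists, coloured red where higher, blue where lower and grey where the test was not passed. Zfp445 and Zfp644 are the 2 that rose and Zfp423, Zfp703 and Zfp568 the 3 that fell.

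The corepressor that KRAB boxes recruit moved the other way from the KRAB genes. Trim28 had 195, 210 and 217 CPM in WT and 163, 163 and 160 CPM in cKO. The knockout libraries were nearly equal and all lower (-0.36 ± 0.06, adjusted p = 0.00673), and Trim28 was called lower under each of the same 15 settings. The Trim28 transcript had 59.6% GC and a mean level of 47.6 RPKM in WT. Of all genes, 11.6% fell in the highest of 5 GC groups and 13.2% fell from 8 RPKM up. Of 16 tested genes of this pathway Trim28 was the only one that fell (6.25%, beside 6.45% of all genes). Atrx, a chromatin remodeller at heterochromatin, was the only one that rose (6.25%, beside 5.96%), by 0.24 ± 0.06 (adjusted p = 0.0332). The Atrx call was lost under 7 of the 15 settings, among them GC offsets (0.12, adjusted p = 0.197) and the absence of any library but cKO 37. Setdb1, the methyltransferase, gave 0.04 ± 0.06, Cbx1, Cbx3 and Cbx5, the heterochromatin proteins, 0.07, -0.05 and 0.01, and Mphosph8 of the HUSH complex 0.29 ± 0.09 (adjusted p = 0.0592).

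GC content differed between the classes and moved with the fold changes of all genes. Transcripts of KRAB members had a median GC content of 43.4%, those of members with fingers alone 50.7% and all tested genes 50.5%. When all genes were split into 5 groups of like size from low to high GC, their median log2 fold change went from 0.11 through 0.045, 0.00 and -0.04 to -0.09. Members in the same groups had medians of 0.22, 0.13, 0.07, 0.06 and 0.04, above all genes in each group. In the lowest group, 21 of 61 KRAB members rose, or 34.4%, beside 11.6% of all genes there. Members with fingers alone in that group had 6 rises of 22, or 27.3%. In the next 2 groups 4 of 17 (23.5%) and 3 of 11 (27.3%) KRAB members rose, beside 7.82% and 4.73% of all genes. With fingers alone it was 2 of 21 (9.52%) and 2 of 25 (8%). In the 2 highest groups none of 8 and none of 6 KRAB members rose, beside 3.56% and 2.11% of all genes. Among members with fingers alone none of 13 and 1 of 33 (3.03%) rose there. With per-library splines on GC content as offsets, 34 members rose and 7 fell, beside 5.08% and 5.76% of all genes, with a median of 0.115. The KRAB members then had 20 rises, 1 fall and a median of 0.15, and the members with fingers alone 14 rises, 5 falls and 0.07. Of the original calls, 27 of 39 rises and 6 of 9 falls were kept, Zfp811, Zfp46, Zfp445, Zfp423 and Zfp568 among them, while those of Zfp703, Zfp771, Zfp710, Zfp644, Zfp383 and Zfp260 were among the lost. What sets the GC trend was not tested.

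**Figure D4:**
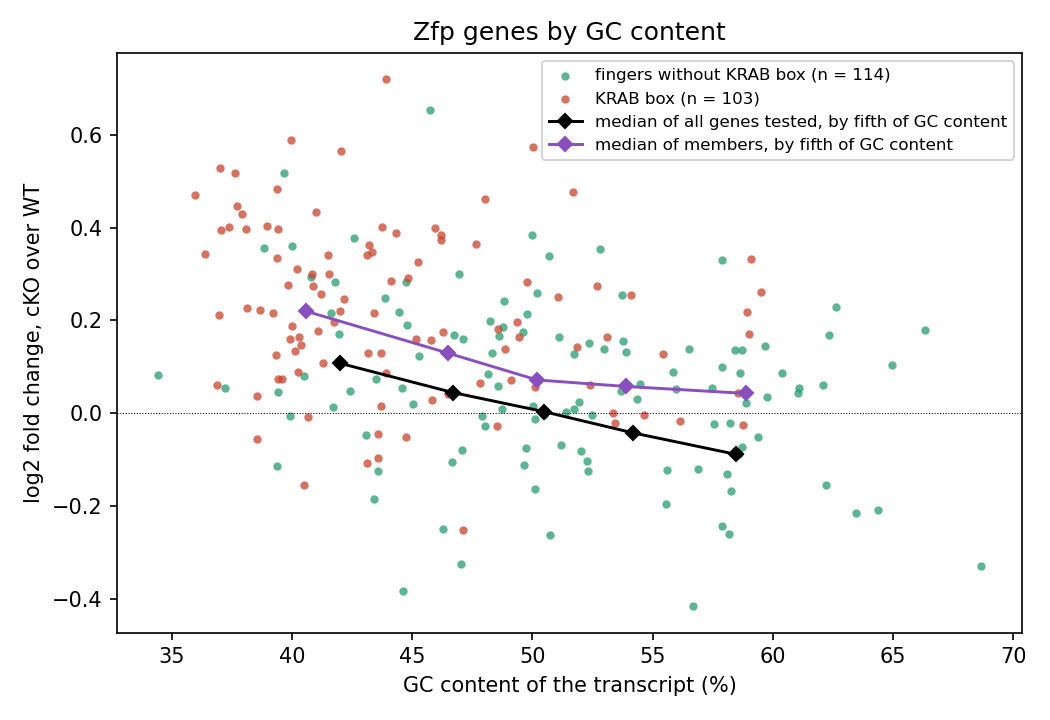
Log2 fold change of cKO over WT (vertical axis) by GC content of the transcript (horizontal axis, %), 1 point per Zfp gene, with the medians of all genes and of Zfp genes in 5 GC groups of like size over all genes tested. Medians of Zfp genes go from 0.22 in the lowest group to 0.04 in the highest, and those of all genes from 0.11 to -0.09.

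Level moved with the result too. The wild-type libraries set both the level ranges and the base of each fold change. Scatter in those libraries by itself tilts medians upward at low levels, and its share in the trend was not tested. Members at 1 to 2 RPKM in WT had 16 rises of 63 and a median of 0.22, those at 2 to 4 RPKM 12 of 66 and 0.16, those at 4 to 8 RPKM 8 of 67 and 0.055, and those from 8 RPKM up 3 of 31 and 0.00. All genes in the same ranges had medians of 0.08, 0.05, 0.005 and -0.07, so the median of members was above that of all genes at each level. The shares of all genes that rose in these ranges were 9.32%, 9.89%, 8.33% and 3.19%, beside 25.4%, 18.2%, 11.9% and 9.68% of members. Among long RNAs held in the nucleus, Neat1 rose from 155 ± 20.6 CPM to 198 ± 9.58 CPM (SD, n = 3 each; log2 0.35 ± 0.09, adjusted p = 0.0337; lost without any 1 library but WT 29, at 0.0543 to 0.1247), while Malat1, Meg3 and Kcnq1ot1 gave 0.06, 0.05 and 0.20 and did not pass. Ribosomal RNA precursor Rn45s took 6.10% to 10.5% of gene counts in WT and 8.10% to 11.97% in cKO. The part of nuclear RNA or of RNA quality in the rise of the Zfp genes was not tested.

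Members that lie together were described by joining Zfp genes at most 500 kb apart, which gave 10 clusters of 4 or more. On chromosome 17 (mm10, 21008941 to 23599487), 14 KRAB members had 4 rises (Zfp160, Zfp52, Zfp945 and Zfp40) and a median of 0.34, and 9 members at 32765497 to 33631714 had 3 rises (Zfp811, Zfp799 and Zfp101) and a median of 0.25. Of these, the calls of Zfp40, Zfp799 and Zfp101 ended with GC offsets or when WT 27, WT 29 or cKO 8 was left out (adjusted p-values of 0.0611 to 0.102, 0.079 to 0.156 and 0.0541 to 0.196 over the settings that ended them). On chromosome 6 none of 9 members at 47835661 to 48534832 passed and their median was 0.01. Median GC content was 38.1% and 40.9% in the 2 chromosome 17 clusters and 54.7% in that of chromosome 6. The part of GC content in this difference was not tested. Over all genes tested 5.96% rose. Of KRAB members in clusters of 4 or more 26.4% rose, beside 28% of the other KRAB members. Neighbours did not always move alike. On chromosome 7, at 29768552 to 30169727, 11 members lie within 401 kb: Zfp84, Zfp30, Zfp790, Zfp383 and Zfp260 rose, Zfp568 fell, and Zfp27, Zfp74, Zfp566, Zfp382 and Zfp146 did not pass. The genes of this cluster outside the rule for named genes, and Zfp40, Zfp799, Zfp101, Zfp62, Zfp187, Zfp192, Zfp866 and Zfp182, were named after their values were seen.

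The chromosome 7 promoters are printed because 5 neighbours rose there around 1 that fell, and because several share a run of 16 bases. The 250 bases before the RefSeq start (GRCm38.p6, plus strand) are given 5′ to 3′ for the 5 that rose. Capitals mark TTCTGGGAAATGTAGT, the longest run that Zfp84, Zfp790, Zfp383 and Zfp260 share on either strand, or its reverse complement ACTACATTTCCCAGAA.
Zfp84 (chr7:29768302-29768551): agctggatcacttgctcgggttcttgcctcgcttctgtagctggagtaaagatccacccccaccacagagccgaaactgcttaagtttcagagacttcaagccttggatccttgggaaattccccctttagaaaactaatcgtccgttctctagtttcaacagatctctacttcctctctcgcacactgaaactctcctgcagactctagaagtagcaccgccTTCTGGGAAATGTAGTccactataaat
Zfp790 (chr7:29815822-29816071): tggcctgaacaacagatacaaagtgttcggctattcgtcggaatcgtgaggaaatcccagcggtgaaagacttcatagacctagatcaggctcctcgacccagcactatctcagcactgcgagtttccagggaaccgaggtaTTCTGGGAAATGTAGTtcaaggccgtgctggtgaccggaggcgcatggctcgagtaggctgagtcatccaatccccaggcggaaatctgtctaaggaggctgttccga
Zfp383 (chr7:29908267-29908516): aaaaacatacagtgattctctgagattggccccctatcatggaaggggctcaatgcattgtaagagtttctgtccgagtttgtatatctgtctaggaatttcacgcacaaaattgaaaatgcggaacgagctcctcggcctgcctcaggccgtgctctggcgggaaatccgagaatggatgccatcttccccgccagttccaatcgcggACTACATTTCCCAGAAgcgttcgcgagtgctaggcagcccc
Zfp260 (chr7:30094826-30095075): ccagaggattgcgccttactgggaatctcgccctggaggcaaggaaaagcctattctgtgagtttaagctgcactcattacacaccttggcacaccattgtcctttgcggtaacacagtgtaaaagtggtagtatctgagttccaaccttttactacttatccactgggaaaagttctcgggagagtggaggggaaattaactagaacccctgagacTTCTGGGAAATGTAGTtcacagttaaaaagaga
Zfp30 (chr7:29783718-29783967): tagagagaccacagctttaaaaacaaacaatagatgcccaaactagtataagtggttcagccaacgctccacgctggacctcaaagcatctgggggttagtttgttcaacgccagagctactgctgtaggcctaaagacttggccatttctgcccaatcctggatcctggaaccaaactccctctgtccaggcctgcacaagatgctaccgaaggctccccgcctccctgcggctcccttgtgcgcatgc
The run ended 11, 92, 25 and 17 bases before the start in Zfp84, Zfp790, Zfp383 and Zfp260 and was not in the window of Zfp30. The windows of Zfp84, Zfp790, Zfp383 and Zfp260 end right before the deposited gene start. That of Zfp30 ends at 29783967, while its deposited start is 29784790, so it belongs to another start site. The RefSeq table held windows for 10 of the 11 cluster members, without Zfp568. With up to 2 mismatches and on either strand, 7 of the 10 held the run, among them 4 of the 5 that rose and 3 of the 5 that did not pass. Outside the cluster 8 of 82 KRAB members with a window held it (9.76%), beside 334 of all 32851 windows of the same length (1.02%). Those windows also cover genes that were not tested and some genes more than 1 time, so the 2 shares are not like for like. Among the 12269 tested genes with a window, 2.08% held the run. That share covers only 76.3% of the genes tested, so it is no more than a rough background. Over the KRAB members with a window, 3 of 26 that rose and 10 of 64 that did not pass had the run (11.5% and 15.6%). It was picked out in these windows before it was counted, so its presence is a description. Over all members, 79.7% had a window, so such counts over the whole set of members are void and not given.

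By library, each of the 5 neighbours that rose was higher in all 3 knockouts. Zfp84 had 10.4, 10.6 and 11.9 CPM in WT, then 14.1, 14.9 and 13.6 CPM (0.37 ± 0.09, adjusted p = 0.0219). Zfp30 had 4.29, 4.18 and 4.22 CPM in WT, then 5.81, 6.67 and 6.40 CPM (0.57 ± 0.115, adjusted p = 0.0114), and its wild-type values were nearly equal. Zfp790 had 7.90, 7.07 and 7.155 CPM in WT, then 11.5, 9.70 and 9.28 CPM (0.46 ± 0.11, adjusted p = 0.0225), with cKO 8 above the other knockouts. Zfp383 had 12.9, 12 and 13.4 CPM in WT, then 18.7, 15.4 and 15.2 CPM (0.36 ± 0.10, adjusted p = 0.035). Zfp260 had 59.2, 61.9 and 59.4 CPM in WT, then 75.4, 67.3 and 78.3 CPM (0.29 ± 0.07, adjusted p = 0.0202). All 5 were without overlap, but of them only Zfp30 kept its call when each library was left out. Without cKO 8, each of the other 4 lost it; over the libraries and GC settings that ended a call, adjusted p-values were 0.0699 to 0.0748 for Zfp84, 0.0717 to 0.101 for Zfp790, 0.0524 to 0.141 for Zfp383 and 0.0602 to 0.0873 for Zfp260.

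**Figure D5:**
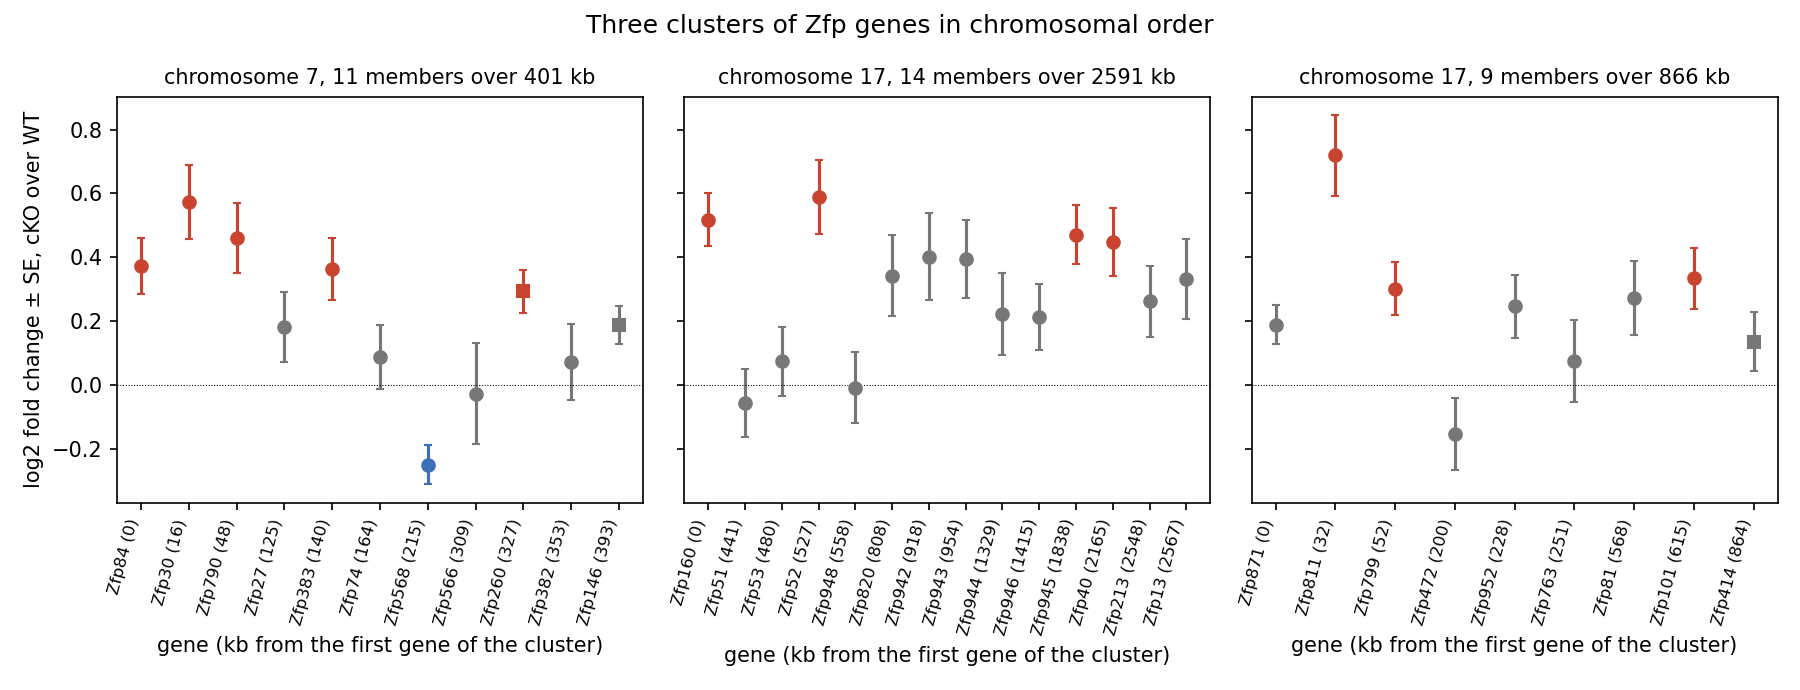
Log2 fold change of cKO over WT with its SE (vertical axis) for Zfp genes of 1 cluster on chromosome 7 and 2 on chromosome 17, in chromosomal order, with the distance in kb from the first gene in brackets. Circles mark genes with a KRAB box found and squares those with none found. Red marks genes that rose, blue the 1 that fell (Zfp568) and grey those that did not pass.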

How the data were processed

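RNA-seq of total RNA from calvaria of 6 libraries, 3 cKO and 3 WT, was used. Per the submitters' processing notes, the tools named are bcl2fastq, TopHat2 2.0.6 and HTSeq, and the build is mm10. Counts per gene, as deposited by the authors, are whole numbers, all of them even, and halved counts were tested as an alternative. Deposited RPKM values, which the authors computed beside the counts, chose the members and gave levels between genes. The gene annotation is not given in the sources used here, nor is strand use, so overlapping antisense reads cannot be told apart.

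Counts were tested in R 4.3.3 with edgeR 4.0.16 (TMM scaling, filterByExpr with a minimum count of 10, robust quasi-likelihood F test, no covariates). Adjusted p is Benjamini-Hochberg over the 16089 genes tested, with a threshold of 0.05, and a change is called higher or lower past it. CPM are counts scaled by TMM library sizes, and ± after a log2 fold change is its SE. The biological coefficient of variation was 11.5%. Replicate libraries differed beyond counting noise (chi-square per degree of freedom 28.1 to 63.4). On simulated data, the test called 3 of 50 genes changed 1.2-fold, 32 of 50 changed 1.5-fold, 37 of 50 changed 2-fold, 48 of 50 changed 4-fold and 21 of 15756 unchanged genes. Far fewer genes were changed in the simulation than were called in the real data, which made its adjusted p stricter.

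The members, lists and rules were chosen with earlier results of these data known. Named genes were the 12 largest rises and 8 largest falls that passed without overlap, the 6 highest mean RPKM over all libraries, 4 role lists and the neighbours of the RPKM limit. GENCODE M21 proteins gave the fingers (C2H2 spacing pattern) and the KRAB box, by a profile built from 55 Zfp proteins with the A box pattern (E-value of at most 0.001), a wider net than the pattern alone, which was the plan. In all, 12 members matched through older symbols. GC content was taken from GENCODE transcripts, and 50-base windows shared with transcripts of other genes, on either strand, were counted. Promoter windows came from RefSeq (GRCm38.p6), in which the motif CCGGAAG, the GC box GGGCGG, the CCAAT box and the motif ATGGCGG were searched on both strands, with no result given, beside the run printed in the report, also in looser forms at first; the limit of 2 mismatches was set after seeing counts. Alternatives were other scaling and filters, DESeq2 1.42.0, limma voom 3.58.1, glmTreat, GC and length offsets, halved counts, other thresholds, other membership limits and leaving out each library. The setting without members that share 20% or more of their windows was added after seeing the data.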

Additional observations from a re-analysis of the deposited data

How the results depend on the processing

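Leaving out 1 library at a time gave 12 to 43 members higher and 1 to 9 lower. Tested against a 1.2-fold change (glmTreat), 0 and 0 members passed, whereas at an unadjusted p under 0.05 in the main test 98 members and 4675 of 16089 genes did. An adjusted p threshold of 0.1 gave 62 higher, beside 9.9% of all genes. A limit of 2 RPKM gave 23 higher and a median log2 fold change of 0.084, and all 325 Zfp number genes tested gave 55 higher, 9 lower and a median of 0.169. Other settings kept the counts within 1.5 times, at 34 (GC offsets) to 53 higher (upper-quartile scaling) and 6 to 10 lower. Of 71 named genes, 18 changed sign under some setting, and none of these had been called. Their log2 fold changes were as follows. With GC offsets Zfp207 had -0.089, Zfp362 0.067, Zfp598 0.029, Zfp57 -0.024, Zfp932 -0.082, Zfp326 -0.008, Zfp335 0.057 and Zfp384 0.016. With GC and length offsets Zfp207 had -0.084, Zfp362 0.069, Zfp598 0.035, Zfp57 -0.021, Zfp932 -0.086, Zfp326 -0.007, Zfp335 0.065 and Zfp384 0.022. With upper-quartile scaling Zfp362 had 0.005, Zfp148 0.022, Zfp462 0.001, Zfp384 0.023 and Zfp566 0.000. With no low-count filter Zfp503 had -0.001 and Zfp532 -0.002. With limma voom Zfp503 had -0.003 and Zfp217 -0.006. With a filter at a mean CPM of 1 Zfp148 had 0.003 and Zfp384 0.004. With RLE scaling Zfp532 had -0.000. With DESeq2 Zfp532 had -0.001. With 1 library left out the ranges were Zfp207 -0.054 to 0.072, Zfp362 -0.096 to 0.058, Zfp503 -0.095 to 0.076, Zfp219 -0.011 to 0.122, Zfp57 -0.035 to 0.116, Zfp932 -0.018 to 0.101, Zfp281 -0.114 to 0.027 and Zfp148 -0.075 to 0.040. For the others they were Zfp217 -0.049 to 0.109, Zfp462 -0.104 to 0.014, Zfp592 -0.020 to 0.052, Zfp532 -0.038 to 0.034, Zfp384 -0.027 to 0.027, Zfp566 -0.147 to 0.130 and Zfp382 -0.008 to 0.116. The cause of these changes was not tested. No paired analysis was possible because the groups share no replicate number. Depth was high in every library, but 3 libraries per group limit the test. In simulated data 3 of 50 changes of 1.2-fold and 32 of 50 of 1.5-fold were called. Far fewer genes were changed there (50 at each fold) than were called here (959 higher and 1038 lower). The adjusted p is stricter where few genes change, so these shares do not measure how many real changes were missed.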
